A study of Homo sapiens with 2 samples.

Results

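DNA glycosylase genes were examined in the peak list of a chromatin immunoprecipitation followed by sequencing (ChIP-seq) of the transcription factor RFX6 in MHCC-97H cells, a line of human hepatocellular carcinoma (HCC). The 10 genes OGG1, MUTYH, NTHL1, NEIL1, NEIL2, NEIL3, UNG, SMUG1, TDG and MPG were looked up among 20037 protein-coding genes, and every listed interval in a gene or within 25 kb of it was taken. The family was proposed with the list in view, since OGG1 was chosen by the score of its interval, which is one of the highest in the list. That score is therefore given as a description. The series holds 2 libraries, 1 precipitated through the HA tag of overexpressed RFX6 (HA-RFX6 ChIP) and 1 input of the same line. A peak list of the ChIP library was analysed, so there was neither a replicate nor a control without the tag, and read depth was unknown. Of 5019 distinct intervals on chromosomes 1 to 22 and X, the middle score was 30, the quartiles of the score were 22 and 39, and the median width was 272 bp. What the score measures is not stated, and it served only to rank intervals.

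DNA glycosylases open base excision repair. Each enzyme recognises a damaged or misplaced base, flips it out of the helix and cuts the bond between base and sugar. An endonuclease or a lyase activity of the glycosylase itself then breaks the strand, a polymerase fills the gap and a ligase seals it. OGG1 removes 8-oxoguanine, the common oxidation product of guanine, and MUTYH removes the adenine that replication places opposite 8-oxoguanine. NTHL1 and the NEIL enzymes act on oxidised pyrimidines, UNG, SMUG1 and TDG on uracil or on thymine mispaired with guanine, and MPG on alkylated purines.

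The stretch of DNA at the centre of the OGG1 finding is shown first. It comprises the 250 bases before the annotated start of OGG1, at chr3:9749702-9749951 on the plus strand, and all 250 lay inside the listed interval. Beside it stand the same stretches of MBD4, a further glycosylase for thymine and uracil at CpG sites whose start also lay in an interval (chr3:129439949-129440198, minus strand), and of 2 genes with no interval within 25 kb, UNG (chr12:109097347-109097596, plus strand) and NEIL3 (chr4:177309624-177309873, plus strand). UNG has 2 annotated starts, and the first is shown. A CCAAT that begins 2 bases before this first start runs across it, so it is not marked in the stretch. The stretch before its second start, which lies inside the gene and in no interval, holds CCAAT 3 times and GGGCGG 3 times. At MBD4, the 121 bases nearest to the start were inside the interval. Sequences are from RefSeq (GRCh38.p14), read 5′ to 3′ on the strand of the gene. Capitals mark the letters CCAAT and GGGCGG, known as the CCAAT box and the GC box, on either strand.
OGG1: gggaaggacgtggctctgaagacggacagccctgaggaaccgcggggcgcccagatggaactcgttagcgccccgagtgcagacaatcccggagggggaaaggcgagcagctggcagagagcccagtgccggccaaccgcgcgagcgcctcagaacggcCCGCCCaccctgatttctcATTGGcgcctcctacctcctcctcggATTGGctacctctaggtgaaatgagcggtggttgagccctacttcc
MBD4: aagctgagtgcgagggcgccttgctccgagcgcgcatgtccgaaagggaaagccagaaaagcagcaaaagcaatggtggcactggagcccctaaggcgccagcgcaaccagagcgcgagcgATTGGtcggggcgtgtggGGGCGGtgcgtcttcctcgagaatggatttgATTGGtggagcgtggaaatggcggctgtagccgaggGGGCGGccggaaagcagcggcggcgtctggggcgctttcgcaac
UNG: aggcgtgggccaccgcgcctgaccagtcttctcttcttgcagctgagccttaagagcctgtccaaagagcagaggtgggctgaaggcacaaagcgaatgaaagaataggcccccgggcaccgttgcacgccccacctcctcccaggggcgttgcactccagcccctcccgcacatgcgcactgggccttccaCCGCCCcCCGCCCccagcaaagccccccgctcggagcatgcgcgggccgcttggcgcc
NEIL3: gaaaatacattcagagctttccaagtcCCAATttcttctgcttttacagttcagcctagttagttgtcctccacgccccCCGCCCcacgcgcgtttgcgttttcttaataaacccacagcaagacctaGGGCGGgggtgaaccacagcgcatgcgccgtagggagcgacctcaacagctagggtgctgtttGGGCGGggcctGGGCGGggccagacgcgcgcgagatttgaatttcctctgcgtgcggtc

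Of the 10 glycosylase genes, 4 had an interval that overlapped the gene or the 2 kb beside it, namely OGG1, NTHL1, NEIL1 and NEIL2. Among all protein-coding genes the share was 20.3%. The midpoint of an interval lay within 1 kb of a gene end at OGG1 and NEIL2, which are 2 of the 10, beside 15.5% of all genes. Within 25 kb, 6 of the 10 genes had an interval, beside 31.1% of all genes. An annotated start lay inside an interval at 1 of the 8 glycosylase genes in the promoter table, OGG1, beside 7.86% of the 15843 protein-coding genes in that table. With 10 genes these counts amount to a few genes each, and they describe this list only. In all, 11 distinct intervals on 13 lines were found within 25 kb, of which 5 were in a gene or within 2 kb of it. The scores of the 11 ranged from 17 to 118 with a median of 34, and 7 were above the median of the whole list.

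**Figure D1:**
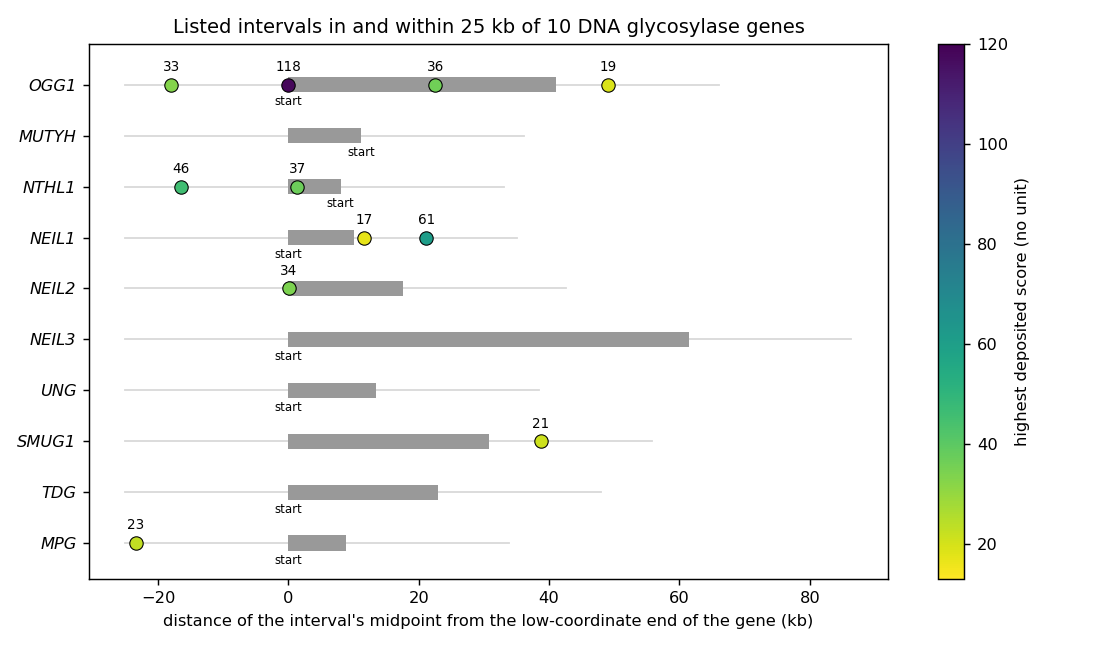
Position of each listed interval (points, coloured and labelled by the highest score) relative to the low-coordinate end of each gene in kb, with the gene as a grey bar, the searched 25 kb on each side as a thin line and the side of the annotated start marked where the promoter table gives it. The interval of score 118 sits at the start of OGG1, and MUTYH, NEIL3, UNG and TDG have none.

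At OGG1, the interval lay on chromosome 3 from 9749542 to 9750323 and was 782 bp wide. It began 410 bp before the start of OGG1, ended 371 bp after it, and its midpoint was 19.5 bp before the start. The interval was listed on 2 lines, with scores of 118 and 45. By the higher score it ranked 3 of 5019 and was the highest of 354 intervals on chromosome 3, where the next score was 98. By width it ranked 129. The lines thus differed by 73 points, whereas the median difference was 11 among 377 intervals listed on 2 lines with unequal scores, and 3 of these had a larger one. When each interval was represented by its lowest score, OGG1 ranked 709.

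OGG1 had a further interval inside the gene, on chromosome 3 from 9772382 to 9772616, with a width of 235 bp and a score of 36. Its midpoint was 22547 bp beyond the start. It lay outside CAMK1, a calmodulin-dependent kinase gene that is nested in OGG1 on the opposite strand, and 2552 bp before the start of CAMK1, which was the closest protein-coding gene end. Among the genes of the whole list that had an interval in the gene or within 2 kb, 24.2% had more than 1, as OGG1 did.

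On the upstream side, an interval of score 33 covered 411 bp from 9731774 to 9732184. It lay 17768 bp outside OGG1 and inside BRPF1, a scaffold gene of histone acetyltransferase complexes, 244 bp from the start of BRPF1. On the far side, an interval of 1084 bp from 9798416 to 9799499 lay in ARPC4, which encodes a subunit of the actin-nucleating complex, 7346 bp outside OGG1. Its score of 19 was at percentile 14.2, although by width it ranked 42 of 5019. Of the 7 other protein-coding genes within 25 kb of OGG1, 1, BRPF1, had an interval midpoint within 1 kb of an end. Among all protein-coding genes this share was 15.5%.

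**Figure D2:**
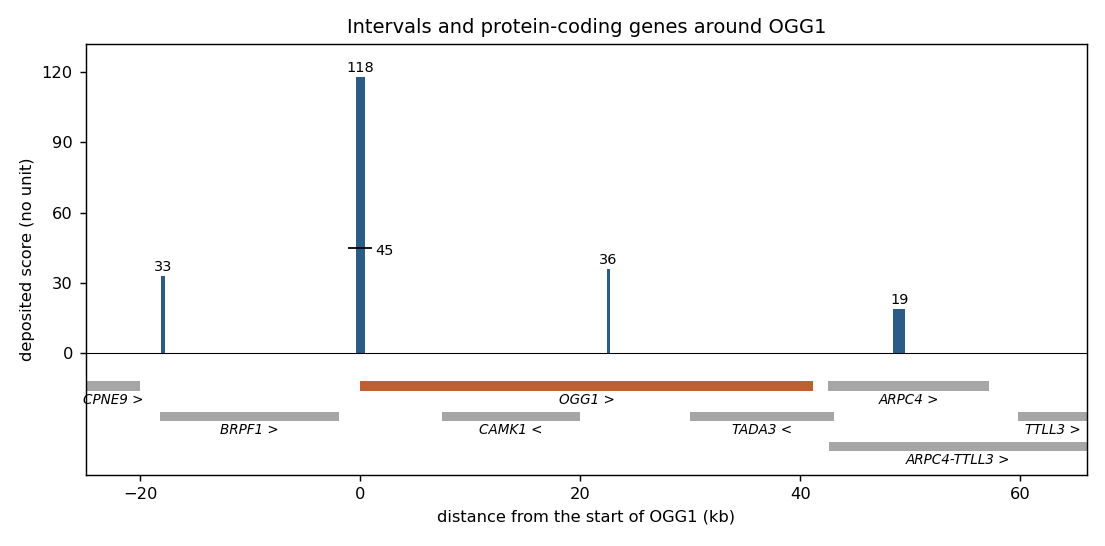
Deposited score (vertical axis, no unit) of the 4 intervals around OGG1 against the distance from its start in kb, with bars drawn at the width of each interval and protein-coding genes below (> plus strand, < minus strand). The interval at the start reaches 118, with a second line at 45, and the others reach 36, 33 and 19.

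Among the glycosylases for oxidised pyrimidines, 3 of 4 had an interval in the gene or within 2 kb, beside the 20.3% of all genes. By the midpoint within 1 kb of a gene end it was 1 of 4, NEIL2, beside 15.5% of all genes. Counts out of 4 genes are not a result about this group. The interval of NEIL1 was lost at a minimum score of 20 and with the gene body alone. NEIL2 had an interval on chromosome 8 from 11769601 to 11769949, 349 bp wide, listed once with a score of 34. It spanned the low-coordinate end of NEIL2 by 109 bp on the outer and 239 bp on the inner side, and it also overlapped the non-coding gene LOC124901888. NEIL2 and OGG1 were thus the genes of the 10 with an interval across a gene end, as was MBD4 outside the 10. Their scores were at percentiles 60.2 and 99.9 of the list.

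At NTHL1 the interval lay at the other side of the gene. It ran on chromosome 16 from 2041065 to 2041317, was 253 bp wide and had a score of 37 on 1 line. NTHL1 is on the minus strand, so the interval was 6643 bp downstream of the start and 1371 bp inside the far end. The start of NTHL1, which adjoins that of the divergent gene TSC2, had no interval. A second interval, with a score of 46, lay 16253 bp outside NTHL1, from 2023221 to 2023567. It overlapped no annotated gene, and the nearest protein-coding gene end was that of NPW, the neuropeptide W gene, at 2639 bp.

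At NEIL1, the interval within 2 kb was the narrowest and the lowest in score of the 11, with 200 bp and 17. It lay 1475 bp beyond the far end of NEIL1, on chromosome 15 from 75358590 to 75358789, within the neighbouring gene MAN2C1, which encodes a cytosolic mannosidase and runs in the opposite direction. A stronger interval, from 75368007 to 75368382, scored 61 and was found 10892 bp outside NEIL1. Its midpoint was 412.5 bp inside the start end of MAN2C1. No interval was at the start of NEIL1. NEIL3 had no interval within 25 kb, and the nearest one on chromosome 4 was 4141 kb away, at GALNT7.

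UNG, SMUG1 and TDG, the 3 glycosylases of the 10 for uracil and thymine mispairs, had no interval in the gene or within 2 kb. With a share of 20.3% among all genes, 0 of 3 is not a result about these genes. MBD4, which acts on the same kind of lesion, had one, with a score of 17 that was lost at a minimum of 20. All 3 are on chromosome 12. The nearest interval to UNG was 43.7 kb away, inside ACACB, with a score of 14. The nearest interval to TDG was 35.2 kb away, at the start of HSP90B1, a chaperone gene of the endoplasmic reticulum, with a score of 30 on both of its lines. SMUG1 had an interval 7918 bp outside its high-coordinate end, from 54196903 to 54197112, which was 210 bp wide, scored 21 and overlapped the non-coding gene LOC105369777.

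MUTYH, the partner of OGG1 in the handling of 8-oxoguanine, had no interval within 25 kb, and the nearest one was 181 kb away, in PRDX1, a peroxiredoxin gene, with a score of 41. MPG had 1 interval within 25 kb, which ran from 53506 to 53758 on chromosome 16 and scored 23 on each of 2 lines. It lay 23249 bp outside MPG and contained the start of POLR3K, which encodes a subunit of RNA polymerase III. This was the interval closest to the 25 kb limit on the inner side. Among the genes with none within 25 kb, TDG had the closest one, at 35.2 kb. Of all 11 intervals, 5 had the glycosylase as the protein-coding gene with the nearest end, and 6 were nearer to an end of another gene.

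Of the 5 intervals in a glycosylase gene or within 2 kb, the one at the OGG1 start was both the highest in score and the widest, and the next in width was that of NEIL2 with 349 bp. Within 25 kb, the next score was 57 points lower, and that interval lay in MAN2C1. Among the 3054 intervals within 1 kb of a protein-coding gene end, the 5 most like it in the ranks of score, width and number of lines were at PAIP1, NUTF2, LRP6, SLC4A7 and CROCC. PAIP1 encodes a partner of the poly(A)-binding protein, and its interval had 838 bp and scores of 106 and 62. NUTF2, a nuclear transport factor gene, had an interval of 776 bp with scores of 85 and 39, which also overlapped CENPT, a gene of the kinetochore. LRP6, a coreceptor gene of Wnt signalling, had one of 706 bp with scores of 113 and 17. SLC4A7, a bicarbonate transporter gene, had 698 bp with 98 and 93, and CROCC, a gene of the ciliary rootlet, had 750 bp with 77 and 50. The likeness rests on these 3 features of 1 list and says nothing on function.

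**Figure D3:**
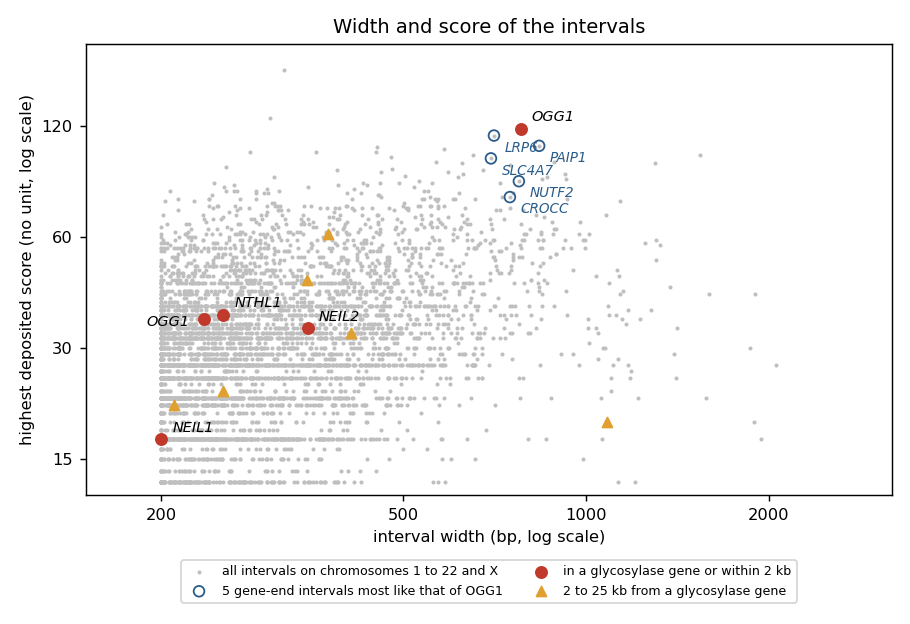
Highest score against width (bp) of each of the 5019 intervals, both on log scales, with the intervals in or within 2 kb of a glycosylase gene as red points, those 2 to 25 kb away as triangles, and the 5 intervals most like that of OGG1 as open circles. The OGG1 start interval lies at 782 bp and 118, while the other red points lie at scores from 17 to 37.

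Next, the promoters were described, taking the 250 bases before and 50 bases from an annotated start. The promoter of OGG1 had 64.3% G and C and 22 CpG dinucleotides. Of 22180 promoters of protein-coding genes, 1361 had their start inside an interval. These had a median of 69.7% G and C (quartiles 65 and 74.7) and of 31 CpG (quartiles 25 and 38), compared with 61.7% and 20 in the others. OGG1 was therefore below the lower quartile of promoters with an interval in both measures. The 13 promoters of the 8 glycosylase genes in the table, some of which overlap each other, ranged from 54.7% at NEIL1 to 77% at MPG, and neither of these extremes lay in an interval.

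RFX proteins are known to bind the X-box, an inverted repeat with arms such as GTTGCC and GTTACC. The letters GTTGCC, on either strand, were in none of the 13 glycosylase promoters and in 12.6% of all promoters. GTTACC was in 1, a promoter of NEIL1, and in 6.13% of all. A whole X-box, searched as GTTNCC and GGNAAC with 2 bases between them, was in none of the 13 and in 0.514% of all. Among promoters with their start in an interval, the shares were 13.1% for GTTGCC, 3.60% for GTTACC and 0.661% for the whole X-box. The absence of these letters refers to windows of 300 bases, whereas the OGG1 interval is wider.

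In the OGG1 promoter, CCAAT was found on the opposite strand, as ATTGG, beginning 72 and 46 bases before the start, and GGGCGG began 91 bases before it, also on the opposite strand. CCGGAAG, the core bound by ETS factors, began 5 bases before the start on the opposite strand and ran across it. In MBD4, CCAAT likewise began 129 and 80 bases before the start, and GGGCGG began 111 and 44 bases before it. These letters were also common without an interval. CCAAT was in 9 of the 13 glycosylase promoters and in 34.7% of all promoters, with 34.6% of those in an interval. Some of the 13 belong to the same gene, and by gene CCAAT was found at 7 of 8. GGGCGG was in 10 of the 13, at 7 of 8 genes, and in 56.3% of all promoters, with 82.5% of those in an interval. For CCGGAAG, which OGG1 and NTHL1 held, the shares were 12.8% and 22.2%, respectively. TATAAA was in none of the 13 and in 9.47% of all. CACGTG, the E-box core, was in promoters of MPG, NTHL1, TDG and UNG and in 8.34% of all. GCGCATGC, part of the NRF1 motif, was in promoters of NEIL3 and UNG and in 3.74% of all.

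The steps after the glycosylase were then examined. Of 29 partner genes of base excision repair, 11 had an interval in the gene or within 2 kb, beside the 20.3% of all genes, and 10 had a midpoint within 1 kb of a gene end, beside 15.5%. Scores of their 12 intervals ranged from 13 to 48. MBD4 had an interval of 213 bp at its start with a score of 17. PARP1, the sensor of strand breaks, had one of 279 bp with a score of 35, centred 20 bp before its start. APEX1, the main endonuclease at abasic sites, had an interval with a score of 46 that ended 218 bp outside the gene and contained the start of the divergent gene OSGEP. For FEN1, the flap endonuclease, the interval of score 48 lay 1970 bp outside the gene within TMEM258.

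DNA polymerase delta or epsilon and the clamp and its loader take part in the long-patch branch. FEN1 and LIG1 were listed under other roles. The 11 genes listed under the long-patch branch held 6 of the 11 partner genes with an interval. These were POLD1 (score 33), POLD2 (27), POLD4 (21), RFC2 (30), RFC4 (13) and RFC5 (13). The share among all genes was 20.3%. The value of 13 was the lowest score in the list, and at a minimum score of 30 POLD1 and RFC2 remained of the 6. Of the genes that keep unwanted bases out of the nucleotide pool, DUT, the dUTPase, had 2 intervals with scores of 30 and 17, and NUDT1, which hydrolyses oxidised dGTP, had none. No interval was found at POLB and POLL, at LIG1 and LIG3, or at XRCC1, PARP2 and HMGB1. Of the long-patch list, PCNA, POLE, POLD3, RFC1 and RFC3 had none either. By role, an interval was listed for 2 of 7 end-processing genes, APEX1 and FEN1, in both cases outside the gene. The same held for 1 of 4 scaffold and break-sensing genes (PARP1) and 1 of 2 nucleotide-pool genes (DUT). It held for 0 of 2 genes grouped as gap filling (POLB and POLL) and 0 of 2 ligases, while POLD1, POLD2 and POLD4 were counted under the long-patch branch. Beside 20.3% of all genes, counts this small are not a result about the roles.

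**Figure D4:**
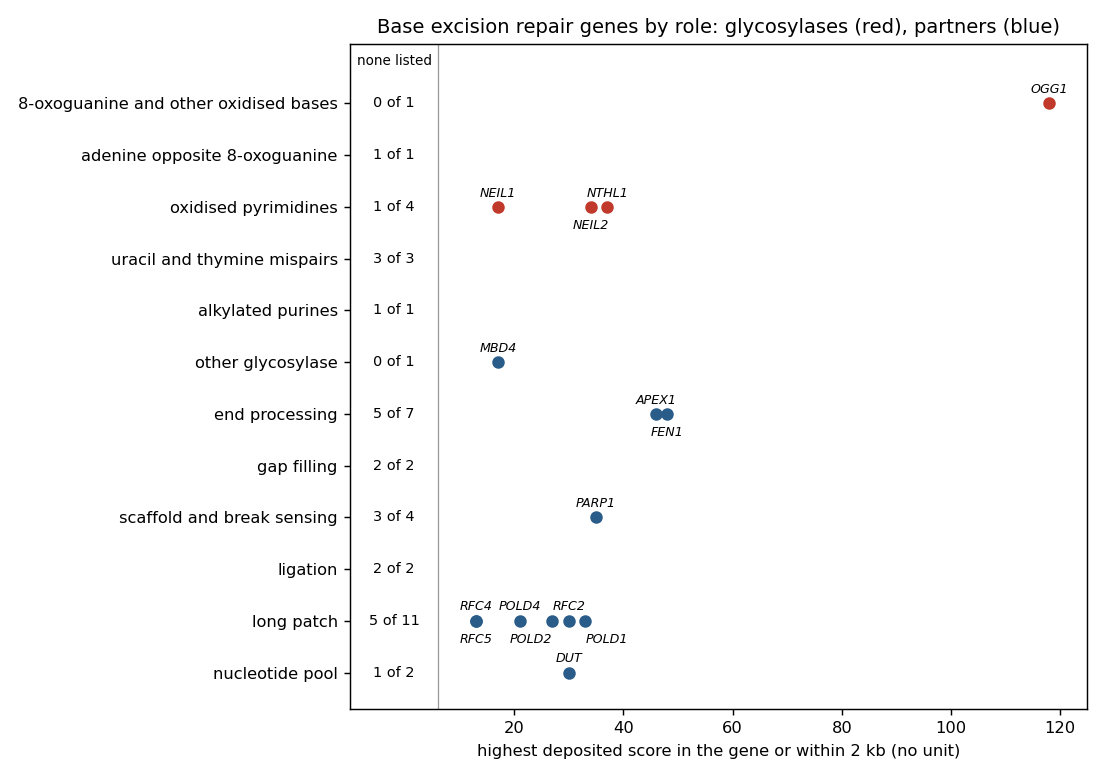
Highest deposited score (no unit) of an interval in the gene or within 2 kb for 10 glycosylase genes (red) and 29 partner genes (blue) by role, with the number of genes without a listed interval at the left. OGG1 is at 118, and every other gene shown is at 48 or lower.

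For comparison, none of the 3 direct reversal genes MGMT, ALKBH2 and ALKBH3, which mend damaged bases without excision, had an interval by the same rule, beside 20.3% of all genes, a share at which 0 of 3 says little. An interval with a score of 118 or more, in the gene or within 2 kb, was listed for 3 of 20037 protein-coding genes. OGG1 was among them, which follows from its choice by score and is a description only.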

How the data were processed

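The study's methods and the submitters' processing notes name MACS2 2.1.0.2 for peak calling by a sequencing company. The authors deposited peaks without a header, with a chromosome, start, end, name and a whole-number score. The aligner, the control used in calling and the meaning of the score are not given in the sources used here. The notes name GRCh37. However, 57.7% of 4866 interval midpoints were within 1 kb of a RefSeq GRCh38.p14 start, compared with 4.56% and 4.58% after moves of 20 kb, so positions were read as GRCh38, 1-based.

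Of 6214 lines, 1 with digit separators was rejoined. Lines with the same position were counted once with their highest score (5022 intervals, of which 5019 were used and 3 mitochondrial ones were left out). Percentiles are shares of intervals with a lower score. Overlaps needed 1 bp. Genes, starts and promoters came from RefSeq tables without exons, so exonic or intronic position was not assigned. The members and gene lists were chosen with earlier results of these data known. All members were named, with the partner genes that had an interval and the 5 intervals closest to that of OGG1 in summed rank differences. The other repair lists of the plan are not reported here. With 1 list there were no tests, replicate errors or intervals for error. The code for gene assignment was run on simulated data, and 200 of 200 planted intervals were recovered. They were planted inside the searched window at gene ends, so this checks the counting alone. Python 3.11.15, numpy 2.4.6, pandas 2.3.3, scipy 1.17.1 and matplotlib 3.10.9 were used.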

Additional observations from a re-analysis of the deposited data

How the results depend on the processing

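No paired analysis was possible because the series has no replicates, and none could be left out. The number of glycosylase genes with an interval in the gene or within 2 kb, 4, was 3 at a minimum score of 30, at a minimum of 20 (chosen after the data were seen) and with the gene body alone, where NEIL1 dropped out each time, and 4 in the other alternatives. The number with a midpoint within 1 kb of a gene end, 2, became 4 within 2 kb, as NTHL1 and NEIL1 entered a wider window. The share of all genes rose from 15.5% to 17.2% with it. The number within 25 kb, 6, ranged from 4 to 6. It was 4 at a minimum score of 30, where the share of all genes was 20.6% in place of 31.1%. When each interval counted only for the gene with the nearest end, it was 5, beside 18.1%. The number of partner genes, 11, became 6 at a minimum score of 30 and 8 at a minimum of 20, fewer intervals being counted, and ranged from 8 to 11 otherwise. The share of all genes with an interval in the gene or within 2 kb fell alongside. It went from 20.3% to 12.5% at a minimum of 30, 17.99% at a minimum of 20 and 16.6% with the gene body alone. The percentile of the OGG1 score, 99.9, became 83.96 by the lowest score of each interval. It was 99.95 when every line was counted, 99.93 among gene-end intervals alone and 99.93 after merging intervals closer than 1 kb. These last settings keep the score by which OGG1 was chosen, so they could hardly lower its place. Without read depth, a gene with no interval cannot be told from one with too few reads.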

Other observations

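The share of protein-coding genes with an interval in the gene or within 2 kb differed between the chromosomes that carry the glycosylase genes. It was 28.6% on chromosome 12, where UNG, SMUG1 and TDG had none, 27.8% on chromosome 3 with OGG1, 29.98% on chromosome 15 with NEIL1, 24.9% on chromosome 16 with NTHL1 and MPG, 18.9% on chromosome 8 with NEIL2, 18.4% on chromosome 1 with MUTYH and 6.36% on chromosome 4 with NEIL3.

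By length, 15.05% of genes up to 10 kb, 19.8% of those from 10 to 20 kb, 23.3% of those from 20 to 45 kb and 23.01% of longer genes had such an interval. Of the glycosylase genes in these classes, 1 of 2, 2 of 4, 1 of 3 and 0 of 1 had one. NEIL3, the longest at 61.4 kb, had none, whereas NTHL1, the shortest at 8.02 kb, had 1. The part of chromosome and length in the counts was not tested.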
